A study of Mus musculus with 33 samples.

Results

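The Nanog line of a CRISPR mutation screen was examined here through 1 comparison, the guide RNAs (gRNAs) recovered from cells that had lost GFP against those recovered from the unsorted cells. All 3918 gRNAs counted for this line were taken, of 15672 over the 4 reporter lines of the series, and only the placeholder guide was left out. Of these, 3908 had a position on mouse chromosome 6 and 10 targeted GFP itself. They were described along the chromosome by cluster, where a gap over 3 kb between neighbouring gRNAs started a new cluster, and this gave 7 clusters. The cells were mouse embryonic stem cells in which the Nanog protein carried a C-terminal GFP fusion and a dummy guide RNA sat at the ROSA26 locus. Library gRNAs were brought in by electroporation. The 4 libraries were bulk replicates 1 and 2 and GFP-negative replicates 1 and 2, of 33 samples and 27 screen libraries in the series. All 4 shared the same line, GFP fusion, placeholder and medium, which held serum, LIF, GSK-3 inhibitor XV and UO126 (a MEK inhibitor), and they differed by the sort for absent GFP. Nothing in the labels says that the replicates were separate clones or independently derived lines, or whether the fusion sat on 1 or both alleles, so the p-values here cover only the spread between these libraries, and that spread may be technical. The number of sorted cells was not analysed here.

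Nanog is a homeobox transcription factor that holds embryonic stem cells in the pluripotent state together with Oct4 and Sox2, which bind a composite element in its promoter. Cas9 led by a gRNA cuts DNA next to a short motif, the PAM (NGG), and repair of the cut leaves small insertions and deletions. A gRNA that damages DNA needed for the fusion protein, whether promoter, enhancer or coding sequence, should become more common among cells without GFP, and a gRNA without such an effect should not. A sum over sites shows only shares of a library, so that a rise of some gRNAs lowers the share of the others.

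The promoter of Nanog and the gRNAs that cut it are shown first, since the 1-kb tile that holds the 5′ end of the gene had the largest rise of any tile in the comparison. Positions are those of mm10, counted from 1, and the sequences are from RefSeq for GRCm38.p6, the same assembly. The 250 bases that precede the Nanog 5′ end, chr6:122707239-122707488, plus strand, are printed with the match to the composite element (TTGCAT, any base, ACAA) in capitals.

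Nanog promoter: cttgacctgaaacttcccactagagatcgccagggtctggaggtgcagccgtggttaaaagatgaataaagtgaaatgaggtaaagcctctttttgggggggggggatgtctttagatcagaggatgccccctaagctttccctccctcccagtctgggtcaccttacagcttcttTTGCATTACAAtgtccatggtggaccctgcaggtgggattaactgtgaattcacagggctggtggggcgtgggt

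The motif search covered both strands and found 1 match in the 300-base Nanog window, at positions -74 to -64 relative to the 5′ end. Of 32851 RefSeq promoter windows of that length, 49 (0.149%) held a match. A match is a description of these letters, not of a bound site.

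The gRNAs of the Nanog promoter with the highest mean level among GFP-negative cells come first, chosen after their values were seen. They are followed by the gRNA with the most bulk counts upstream of the 5′ end that had no count in either GFP-negative library, and by the like gRNA at the 5′ end of Mirc35hg, far from Nanog on the same chromosome. The last 4 overlap the composite element. Each is written 5′ to 3′ on its own strand with the PAM in capitals.
chr6:122707449-122707471 (plus): gggattaactgtgaattcacAGG
chr6:122707254-122707275 (minus): gaccctggcgatctctagtGGG
chr6:122707387-122707409 (minus): gctgtaaggtgacccagactGGG
chr6:122707450-122707472 (plus): ggattaactgtgaattcacaGGG
chr6:122707340-122707362 (plus): gggggatgtctttagatcagAGG
chr6:30174122-30174143 (plus): gtgcagagataatgactccGGG
chr6:122707401-122707423 (minus): gtaatgcaaaagaagctgtaAGG
chr6:122707412-122707434 (plus): cttttgcattacaatgtccaTGG
chr6:122707415-122707437 (plus): ttgcattacaatgtccatggTGG
chr6:122707425-122707447 (plus): atgtccatggtggaccctgcAGG

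These sequences differ in whether they were counted at all, and the first base goes with that difference. Promoter windows of Nanog and Mirc35hg held 134 gRNAs whose strand could be read without ambiguity. Of the 72 that begin with G, 69 had a count in at least 1 library. None of the 62 that begin with another base had a count in any of the 4 libraries, the last 3 sequences above among them. Over the chromosome 1665 of 3908 gRNAs with a position were counted, and with the GFP-targeting ones 1674 of 3918. An interval of 22 bases, which in the windows always began with G, was counted for 560 of 567 gRNAs (98.8%), and an interval of 23 bases for 1105 of 3341 (33.1%). Outside the promoter windows the first base was not read. A gRNA with no count in bulk gives no information on the sort, and no gRNA was found in a GFP-negative library that was absent from both bulk libraries.

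The bulk libraries held 69662 and 62654 counts and the GFP-negative libraries 142821 and 196665. Bulk was even, with 1619 and 1612 gRNAs counted and 244 and 320 gRNAs making up 50% of the counts. Sorted cells held 820 and 817 gRNAs, and 29 and 30 of them made up 50%. The 10 most abundant gRNAs took 4.89% and 3.64% of bulk and 25.2% and 27.9% of the GFP-negative counts. Both sorted libraries were thus narrow, and they shared only part of their gRNAs. Of these 491 were in both, 59.9% of the first library and 60.1% of the second, whereas 1557 gRNAs (96.2% and 96.6%) were in both bulk libraries. Over the gRNAs counted in both libraries of a pair, the correlation of log2 counts was 0.44 in bulk (1557 gRNAs) and 0.16 among GFP-negative libraries (491 gRNAs); these are correlations across gRNAs, which are not replicates. PCR counts without molecular identifiers are not independent molecules, and the deeper sorted libraries did not hold more different gRNAs.

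The 10 gRNAs against GFP check the sort, because they cut the reporter and need no regulatory effect. Their share of counts was 0.564% and 0.575% in bulk and 10.2% and 12.1% among GFP-negative cells. Both sorted libraries lay far above both bulk libraries, by a mean of 19.6-fold (log2 4.29, edgeR adjusted p = 1.95e-08 over the 7 clusters and this group). An exact permutation test over 2 against 2 libraries cannot go below p = 0.333, and gave that value. The rise stayed called under every alternative run, between 4.16 and 5.21 on the log2 scale.

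Of these 10 gRNAs 9 were counted, numbered here in table order. GFP-targeting gRNA 5 had no count in any library. For gRNA 10, the most abundant in the first sorted library, counts were 136 and 78 in bulk and 5443 and 3472 in GFP-negative replicates 1 and 2. For gRNA 4, the most abundant in the second, they were 63 and 120 against 1615 and 7018. The most even between sorted libraries were gRNA 2 with 53 and 47 against 1626 and 1685 and gRNA 8 with 40 and 9 against 511 and 802 (1.33-fold and 1.14-fold apart in CPM), whereas others were high mainly in 1 replicate. Counts of gRNA 6 were 10 and 4 in bulk and 1625 and 62 in the sorted libraries, and those of gRNA 7 were 26 and 40 against 156 and 5644. For gRNA 9 they were 28 and 2 against 1258 and 0, where a count of 0 allows up to 15.3 CPM (counts scaled to a library total of 1000000; the floor is 3 counts). Thus 8 of the 10 lay above both bulk libraries in both sorted libraries, and the 9th did so in replicate 1 alone. The remaining gRNAs had 13 and 39 against 1554 and 608 (gRNA 1) and 24 and 21 against 727 and 4546 (gRNA 3). Even gRNAs that cut the reporter itself varied between sorted replicates. Among the 8 counted in both, CPM differed by up to 36.1-fold (gRNA 6), and gRNA 9 was absent from replicate 2.

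The same measure was lower in the Nanog line than in the replicated lines of the other genes, without passing a test. Taken per replicate number, the log2 ratio of GFP-negative to bulk share was 4.17 and 4.40 for Nanog, a mean of 4.29 ± 0.16 (SD, n = 2). For Tdgf1 it was 4.92 ± 0.38 (SD, n = 3; exact permutation p = 0.2, adjusted 0.2), and for Zfp42 5.35 ± 0.21 (SD, n = 4; exact permutation p = 0.0667, the smallest this design allows, adjusted 0.133 over 2 tests). Every Nanog value was below every value of the other lines, including the single Rpp25 value of 5.69. The GFP-negative share itself did not follow that order. It was 10.2% and 12.1% in the Nanog line, 4.53%, 8.41% and 6.62% in Tdgf1, 16.1% to 28.2% in Zfp42 and 42.0% in the single Rpp25 library.

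Of the 7 clusters, 1 rose in share among GFP-negative cells and 5 fell (edgeR quasi-likelihood test without a replicate block, adjusted p under 0.05). Counted with the GFP-targeting gRNAs, that is 25.0% of the features tested enriched and 62.5% depleted. For each called cluster the exact permutation test on the shares gave p = 0.333, the smallest value possible with 2 against 2 libraries. The far smaller edgeR values below rest on a model whose spread was estimated jointly over these 8 features. With a replicate block, which takes in the pairing of same-numbered libraries, 1 cluster rose and 3 fell. The cluster that rose is the one that holds Nanog. With TMM scaling (trimmed mean of M-values, which centres the libraries on features in the middle of the range) in place of total counts, the median cluster moved up by 0.92 on the log2 scale, and the split became 2 enriched and 2 depleted. Clusters 2, 6 and 7 kept their direction and their call under both scalings.

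Cluster 6, chr6:122701578-122716987, covers the Nanog gene from 5.9 kb before its 5′ end (122707489) to 2.4 kb past its 3′ end (122714633), with 1713 gRNAs. Its share was 36.8% and 39.4% in bulk and 60.5% and 60.0% among GFP-negative cells. The sorted libraries were both above the bulk libraries and close to each other, 1.58-fold higher on average (log2 0.66, adjusted p = 1.77e-09, edgeR). Without either bulk library, either sorted library or its most abundant gRNAs the log2 ratio stayed between 0.57 and 0.71, each time with a call. The replicate block gave an adjusted p of 1.91e-04 in edgeR. All positioned gRNAs outside this cluster made up 62.6% and 60.0% of bulk and 29.4% and 27.8% of GFP-negative counts.

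Cluster 7, chr6:122760637-122771576, lies 53.1 kb past the Nanog 5′ end within the RefSeq span of Slc2a3, which encodes a glucose transporter (GLUT3). Its 1041 gRNAs had 29.6% and 28.0% of bulk and 10.5% and 10.6% of GFP-negative counts. This was the most even fall of the comparison, to 0.366 of the bulk share (log2 -1.45, edgeR adjusted p = 8.76e-09), and it was called in all 9 alternatives, between -0.53 and -1.64. The sorted libraries differed from each other by less than the bulk libraries did.

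Clusters 1 and 2 lie on the same chromosome but far from Nanog. Cluster 1, chr6:30173554-30175041, spans the 5′ end of Mirc35hg, the host gene of the miR-183/96/182 cluster, with 343 gRNAs at 11.5% and 9.31% of bulk and 2.65% and 4.49% of GFP-negative counts (log2 -1.54, edgeR adjusted p = 2.74e-04). Cluster 2, chr6:39226305-39226520, has 38 gRNAs and lies 19.5 kb from Kdm7a, which encodes a histone demethylase. It held 2.14% and 1.97% of bulk and 0.222% and 0.374% of GFP-negative counts, the lowest ratio of any cluster (log2 -2.79, edgeR adjusted p = 8.96e-04). In neither cluster did the libraries of the populations overlap. Both calls were lost when either bulk library was left out, with the direction kept (log2 -1.38 to -1.68 and -2.73 to -2.84), and cluster 1 was also not called with TMM scaling (-0.64, adjusted p = 0.101).

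The other 3 clusters lie between the Dppa3 gene, which encodes a protein of the oocyte and early germ line, and Nanog. Cluster 3, chr6:122661568-122664585, ends 42.9 kb before the Nanog 5′ end. Its 405 gRNAs held 9.50% and 10.4% of bulk and 6.86% and 4.30% of GFP-negative counts (log2 -0.84, edgeR adjusted p = 0.0119). The call was lost with the replicate block (adjusted p = 0.0970), with either bulk library left out, with totals that omit the GFP-targeting gRNAs (log2 -0.68, adjusted p = 0.0866) and without its most abundant gRNA (adjusted p = 0.107), and the direction turned with TMM scaling (0.10, adjusted p = 0.758).

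Cluster 5, chr6:122679588-122681079, ends 26.4 kb before the 5′ end. Its 137 gRNAs held 3.25% and 3.65% of bulk and 1.02% and 2.12% of GFP-negative counts (log2 -1.14, edgeR adjusted p = 0.0463). This call also did not survive the replicate block (adjusted p = 0.158), totals without GFP-targeting gRNAs (log2 -0.97, adjusted p = 0.131), TMM scaling (-0.24, adjusted p = 0.650) or the loss of either bulk library (-1.05 and -1.22).

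Cluster 4, chr6:122669073-122671050, 36.4 kb before the 5′ end, was the only cluster besides that of Nanog whose mean share was not lower among GFP-negative cells. Its 231 gRNAs held 6.71% and 6.67% of bulk and 8.09% and 5.99% of GFP-negative counts, which overlap (log2 0.07, edgeR adjusted p = 0.813). A different single gRNA carried most of it in each sorted library. The gRNA chr6:122670049-122670070 had 53 and 60 counts in bulk and 5685 in GFP-negative replicate 1, where it was 49.2% of the cluster, but 0 in replicate 2. The gRNA chr6:122670774-122670795 had 7 and 96 counts in bulk, 6 in GFP-negative replicate 1 and 7869 in replicate 2, where it was 66.9% of the cluster. Without these 2 gRNAs, chosen after their values were seen, the cluster was at log2 -1.10 (edgeR adjusted p = 0.0226). They were the highest of the sorted libraries, so a lower ratio was built into this step, and the value is a description. Under the same removal clusters 3 and 5 were at -1.37 and -2.19. With TMM scaling cluster 4 was enriched (log2 1.01, edgeR adjusted p = 0.0162), and without GFP-negative replicate 2 its log2 ratio was 0.27.

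In clusters 1, 3, 5 and 7 there were also single gRNAs that were high in 1 sorted library and nearly absent from the other. In cluster 3 chr6:122663341-122663363 had 253 and 186 counts in bulk and 2624 and 2 among GFP-negative replicates 1 and 2. The highest gRNA of replicate 2 in that cluster, chr6:122664503-122664525, had 84 and 51 against 3 and 3846. In cluster 1 chr6:30173554-30173576 had 147 and 60 against 8 and 4814, and made up 54.6% of the cluster's counts in replicate 2. In cluster 5 chr6:122679739-122679761 had 1 and 37 against 0 and 2513, or 60.4%. In cluster 7 chr6:122763241-122763263 had 143 and 88 against 2285 and 0, and chr6:122763311-122763332 had 16 and 47 against 0 and 2166. The highest of cluster 1 in replicate 1, chr6:30174027-30174049, had 163 and 143 against 642 and 0. In cluster 2 the highest were also counted mainly in 1 replicate, with mean CPM of 0.393 and 0.562 of bulk. For chr6:39226363-39226385 counts were 108 and 39 against 122 and 0, and for chr6:39226336-39226358 182 and 53 against 8 and 371. An exception was the highest of cluster 5 in replicate 1, chr6:122680723-122680745, with 19 and 80 against 480 and 115. In cluster 6 the highest gRNA of replicate 1 was also high in replicate 2. It was chr6:122703374-122703395, 4.1 kb before the Nanog 5′ end, with 89 and 46 counts in bulk and 3859 and 2034 among GFP-negative cells, 4.47% of the cluster in replicate 1. The highest of replicate 2, chr6:122707065-122707087, had 43 and 98 in bulk, 161 in replicate 1 and 8814 in replicate 2, or 7.46% of the cluster. Its 1127 CPM in replicate 1 lay between its bulk values of 617 and 1564 CPM, so it was high in replicate 2 alone. These gRNAs were picked by their rank in a sorted library, so the values are a description.

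The Nanog cluster differed from the others in the level of its gRNAs more than in how many of them were found. At the common depth of 62654 counts, expected numbers of counted gRNAs in cluster 6 were 684 and 680 in bulk and 318 and 323 among GFP-negative libraries, a ratio of 0.470. The ratio was 0.477 in cluster 7, 0.492 in cluster 4 and between 0.361 and 0.477 in clusters 1, 2, 3 and 5. GFP-targeting gRNAs had a ratio of 0.944. By number alone the Nanog cluster was therefore within the range of clusters that lost share, though it was the highest of the 7 clusters at a depth of 6265 counts (0.422, others 0.287 to 0.367). No test was run on these ratios.

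To see levels without choosing gRNAs by their sorted values, the 997 gRNAs with at least 10 counts in both bulk libraries were followed. Cluster 6 had 413 of them, of which 67.3% and 65.4% were counted in GFP-negative replicates 1 and 2, and the 578 in other clusters had 65.9% and 60.4%. Detection was again similar. Among those counted in a sorted library, however, the median level was 224 and 386 CPM in cluster 6 and 119 and 102 CPM in the other clusters together. The share of gRNAs with a higher level than their bulk mean was 22.3% and 26.2% in cluster 6 and 6.23% and 7.96% elsewhere. Most gRNAs of cluster 6 were thus below their bulk level in each sorted library. Each of the 6 other clusters stayed at or below 8.91% in replicate 1 and 10.9% in replicate 2, so that cluster 6 was above all of them in both replicates.

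This was so for each side of the gene. Of the cluster 6 gRNAs so counted, 21.8% and 21.2% of the 170 upstream of Nanog were above their bulk mean, 22.6% and 28.4% of the 155 within its span, and 22.7% and 31.8% of the 88 downstream. Each of these 3 zones was above each of the other 6 clusters in both replicates. No exons were in the annotation used here, so coding sequence and introns of Nanog were not separated.

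Summed by zone, the mean share of library counts was higher among GFP-negative cells in all 5 zones of the cluster, but the replicates did not put the zones in 1 order. More than 2 kb upstream of the 5′ end, cluster 6 went from 9.61% ± 0.41 in bulk to 16.4% ± 3.7 among GFP-negative cells (SD, n = 2 each; log2 ratio 0.77). Within 2 kb upstream it went from 4.92% ± 0.31 to 8.92% ± 2.0 (0.86), and over the first 2 kb of the Nanog span from 4.64% ± 0.074 to 8.86% ± 2.7 (0.93). The rest of the span went from 9.95% ± 1.3 to 13.6% ± 5.1 (0.45), with overlapping libraries, and the DNA downstream from 8.98% ± 0.24 to 12.5% ± 1.0 (0.48). By replicate, the first 2 kb of the span went from 4.59% to 10.8% and from 4.69% to 6.96%, and the rest of it from 9.05% to 9.98% and from 10.9% to 17.2%. Differences between zones were not tested.

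At a step of 1 kb, 5 of 41 tiles were enriched and 5 depleted among GFP-negative cells (edgeR, adjusted p under 0.05), and counted with the GFP-targeting gRNAs the tested features were 14.3% enriched and 11.9% depleted. TMM scaling moved the median tile up by 0.56 and gave 8 enriched and 5 depleted. Of the enriched tiles 4 were in the Nanog cluster, and none of the depleted ones was. Every enriched call was lost when the gRNA with the most counts over the 4 libraries was taken out of each tile. The deeper sorted libraries weigh most in that sum, so a lower ratio was in part built into this step. Under it 19 tiles were depleted. The loss of the calls is therefore a description, and the call of cluster 6 held under the like step.

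The tile from 122707000, which holds the Nanog 5′ end, had the largest rise. Its 140 gRNAs made up 2.79% and 2.79% of bulk and 8.08% and 8.19% of GFP-negative counts (log2 1.54, edgeR adjusted p = 5.06e-04). Nearly equal shares in the sorted libraries came from different gRNAs. In replicate 1 the highest was the first promoter gRNA printed above, 27.7% of the tile, and in replicate 2 chr6:122707065-122707087, 54.7% of it. Without the latter the log2 ratio was 1.12 with an adjusted p of 0.0710 (edgeR). The call held in the other 7 alternatives.

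Around it, the tile from 122708000, in the first 2 kb of the gene, had 2.31% and 2.79% of bulk against 6.06% and 4.64% (log2 1.07, edgeR adjusted p = 0.0339). Upstream, the tile from 122702000 had 2.95% and 3.26% against 5.75% and 5.53% (log2 0.86, edgeR adjusted p = 0.0130). The tile from 122715000, past the 3′ end, had 4.31% and 3.51% against 6.58% and 6.34% (log2 0.72, edgeR adjusted p = 0.0331). In all 3 the sorted libraries lay above both bulk libraries, and all 3 kept the call with the replicate block and lost it when either bulk library or the highest gRNA was left out.

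Other tiles near the 5′ end did not all move with these. The tile from 122703000 went from 3.18% and 3.08% to 7.91% and 4.81% (log2 1.02, edgeR adjusted p = 0.0651, and 1.10e-03 with the replicate block). The tile from 122706000 went from 1.47% and 2.04% to 2.66% and 2.53% (log2 0.56, adjusted p = 0.247). The next ones showed overlapping libraries. Shares were 1.72% and 1.95% against 1.64% and 2.90% from 122704000, 2.53% and 2.34% against 3.48% and 0.920% from 122705000, 2.20% and 1.63% against 1.52% and 1.81% from 122709000, and 1.20% and 1.96% against 0.312% and 2.23% from 122710000. Further into the gene, 2 tiles separated the populations without passing the threshold and 2 did not separate them. From 122711000 the shares were 1.28% and 1.75% against 3.42% and 3.26% (log2 1.14, edgeR adjusted p = 0.0557), and from 122713000 they were 2.05% and 2.66% against 2.92% and 7.10% (log2 1.09, edgeR adjusted p = 0.182). Overlapping shares were 2.86% and 2.90% against 2.75% and 3.25% from 122712000, and 2.25% and 2.64% against 2.28% and 2.62% from 122714000. At the upstream edge of the cluster, the tile from 122701000 had both sorted libraries below bulk, with 0.534% and 0.697% against 0.390% and 0.285% (log2 -0.87, edgeR adjusted p = 0.341).

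The fifth enriched tile, from 122670000, lies in cluster 4. It held 2.91% and 3.06% of bulk and 4.78% and 4.83% of GFP-negative counts (log2 0.68, edgeR adjusted p = 0.0339). The 2 gRNAs of that cluster described above made up 83.3% of it in replicate 1 and 82.8% in replicate 2. The call was lost with the replicate block (adjusted p = 0.141), and without its most abundant gRNA the direction turned (-0.053). None of its gRNAs was above both bulk libraries in both sorted libraries.

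Depleted tiles were those from 30174000 in cluster 1 (log2 -2.04, edgeR adjusted p = 8.31e-03), 39226000 in cluster 2 (-2.78, 0.0339, and 0.0672 with the replicate block), 122681000 in cluster 5 (-3.30, 8.62e-03), and 122764000 and 122765000 in cluster 7 (-2.31 and -2.08, 8.31e-03 and 0.0130). The tile from 122681000 rests almost wholly on 1 gRNA. It held 5 gRNAs, of which 3 were counted. The same gRNA made up 96.4% and 59.1% of its bulk counts and 100% of its 19 and 35 GFP-negative counts. No value was obtained for this tile without its highest gRNA, so its fall describes that gRNA more than the tile. The tile from 30174000 had 5.84% and 4.89% of bulk and 1.22% and 1.40% of GFP-negative counts. From 122764000 the shares were 3.94% and 4.18% against 0.814% and 0.819%. No depleted tile had a gRNA above both bulk libraries in both sorted libraries, and all 5 lost the call when either bulk library was left out.

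For single gRNAs the design gave little. Of 3918 gRNAs 1232 passed the filter on low counts and were tested with edgeR, and 0 (0.00%) were enriched and 74 (6.01%) depleted. At an unadjusted p under 0.05, edgeR had 0 higher and 252 lower. DESeq2 filters on the mean count over all libraries, and only 84 gRNAs got an adjusted p. A gRNA high in a sorted library passes that filter more easily, and none of the depleted gRNAs named below passed it. The balance of its calls was thus set in part by the filter, and its values given below are adjusted over these 84. DESeq2 called 50 of the 84 (59.5%) enriched and 0 depleted, and limma-voom called 0 either way. Of the 50, 9 were GFP-targeting and 33 in cluster 6, where 57 had an adjusted p (57.9% called, near the share over all), and 19 had under 10 counts in 1 of the sorted libraries and 21 lay above both bulk libraries in both. With the replicate block edgeR called 0 and 0. Without GFP-negative replicate 1 it called 133 enriched and 369 depleted, and without GFP-negative replicate 2, 97 and 231, while without either bulk library it called none.

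All 74 depleted gRNAs had 0 counts in both sorted libraries. Their mean bulk level was 112 to 294 CPM with a median of 203 CPM. Such a loss did not always give a call, since 437 gRNAs were counted in both bulk libraries and in neither sorted library. Some with higher bulk levels were not called, such as chr6:122707340-122707362 at 361 CPM (edgeR adjusted p = 0.0787) and chr6:30174122-30174143 at 839 CPM (edgeR adjusted p = 0.115). The 74 depleted gRNAs followed the clusters' numbers, with 35 of 516 tested in cluster 6 (6.78%) and 21 of 331 in cluster 7 (6.34%), near the 6.01% over all gRNAs tested. Of the 10 with the highest bulk level, chr6:122704847-122704869 (2.6 kb before the Nanog 5′ end) and chr6:122767704-122767726 (cluster 7) both had 22 and 17 bulk counts, at least 16.2-fold above a floor of 3 counts per sorted library (edgeR adjusted p = 0.0489 for each). A neighbour that starts 2 bases on from the first, chr6:122704849-122704871, had 14 and 20 bulk counts and 271 and 502 among GFP-negative cells. The others were chr6:122664176-122664198 in cluster 3, chr6:122764566-122764588 and chr6:122762793-122762815 in cluster 7, and 5 in the Nanog cluster. Those 5 were chr6:122706421-122706443, chr6:122707244-122707266, chr6:122702473-122702495, chr6:122713187-122713209 and chr6:122715161-122715182. For these 8, bulk counts were 8 to 26 and the bounds 14.4-fold to 16.1-fold.

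A looser description than the test was to ask which gRNAs lay above both bulk libraries in both sorted libraries, whatever the size of the difference. There were 31 (0.791% of all 3918, and 1.85% of the 1674 counted), of which 8 targeted GFP. Of the others 21 were among the 705 counted in cluster 6, 2 among the 416 counted in cluster 7, and none in clusters 1 to 5. Below both bulk libraries in both sorted libraries were 1094 (27.9% of all, and 65.4% of those counted). They were 394 of the 705 in cluster 6 and 310 of the 416 in cluster 7, a smaller share in cluster 6. The 21 gRNAs of the Nanog cluster had ratios of mean CPM between 1.08 and 18.6, with a median of 4.07. By position 7 lay upstream of the 5′ end, 8 in the span and 6 downstream. No edgeR p of theirs passed the threshold after adjustment.

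Upstream, the farthest of these was chr6:122702709-122702731, 4.8 kb before the 5′ end, with 154 and 91 counts in bulk and 2156 and 632 among GFP-negative cells. It was followed by chr6:122703374-122703395, given above, which at 18.6-fold had the largest ratio (1278 and 734 CPM in bulk, 27020 and 10343 CPM in sorted cells; edgeR log2 5.95 ± 3.35 (SE), adjusted p = 0.403, and 0.00816 by DESeq2). Closer to the gene, chr6:122706717-122706739 had 32 and 35 against 439 and 783, at 6.93-fold. The gRNA that starts 79 bases before it, chr6:122706638-122706660, had 63 and 45 against 1782 and 517. Both sites, centred 761 and 840 bases before the 5′ end, were above bulk in each replicate.

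In the 2 overlapping promoter windows that RefSeq gives for Nanog, 1 gRNA of 77 met the rule, chr6:122707449-122707471, whose target spans positions -40 to -18. It had 187 and 22 counts in bulk and 3190 and 949 among GFP-negative cells, 8.95-fold by mean CPM (edgeR adjusted p = 0.521, DESeq2 0.0260). The gRNA shifted by 1 base, chr6:122707450-122707472, had 108 and 65 against 83 and 1626, high in replicate 2 and below bulk in CPM in replicate 1. These 2 target sequences share all but their ends. The other promoter gRNAs printed were each high in 1 replicate alone. For chr6:122707254-122707275 the counts were 90 and 48 against 1811 and 0, and for chr6:122707387-122707409 they were 47 and 31 against 58 and 1912. Of the 4 gRNAs whose interval overlaps the composite element only chr6:122707401-122707423 was counted, with 25 and 39 in bulk and 334 and 0 among GFP-negative cells. Overlap was of the target with its PAM, and the expected cut sites of all 4 lie outside the element. The data thus hold no replicated value for these gRNAs and none for a cut within the element. The gRNA chr6:122707340-122707362 had 18 and 29 in bulk and none in sorted cells, at least 19.9-fold lower but not called (edgeR adjusted p = 0.0787). At the Mirc35hg start, chr6:30174122-30174143 had 38 and 71 against 0 and 0, at least 46.3-fold lower but not called (edgeR adjusted p = 0.115). Of 37 counted gRNAs in the Nanog windows 21 and 18 were counted in the sorted libraries, and of 32 in the Mirc35hg window 11 and 14.

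Inside the gene, the highest ratio belonged to chr6:122708465-122708486, 986 bases past the 5′ end, with 48 and 39 counts in bulk and 377 and 2850 among GFP-negative cells, 13.1-fold. In the same tile chr6:122708108-122708130 had 25 and 35 against 791 and 430. Other gRNAs of this stretch had smaller ratios. For chr6:122709186-122709208 counts were 91 and 89 against 207 and 294, which is 1.08-fold in CPM and the lowest of the 21. For chr6:122711394-122711416 they were 32 and 10 against 98 and 143 (2.28-fold). Towards the 3′ end chr6:122712948-122712970 had 88 and 119 against 322 and 1893, and chr6:122713013-122713034, 65 bases on, 155 and 109 against 503 and 937.

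Past the 3′ end the named gRNAs differed between sorted replicates by less than they differed from bulk. For chr6:122714925-122714946 counts were 164 and 135 in bulk and 1600 and 1260 among GFP-negative cells (3.91-fold). For chr6:122715526-122715548 they were 53 and 143 against 916 and 1681 (4.92-fold). The gRNA chr6:122716542-122716564, 9.1 kb past the 5′ end, had 141 and 108 against 1208 and 1333 (4.07-fold). At chr6:122716521-122716543, 21 bases before it, the counts were 157 and 180 against 630 and 1525 (2.37-fold). All of these lie beyond the annotated 3′ end of Nanog in RefSeq, and each was above bulk in both replicates, though none passed edgeR's threshold.

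Outside the Nanog cluster 2 gRNAs met the rule, both in cluster 7 in the Slc2a3 span. The gRNA chr6:122762145-122762167 had 57 and 59 counts in bulk and 651 and 308 among GFP-negative cells (3.48-fold), and chr6:122770316-122770338 had 28 and 75 against 424 and 497 (3.44-fold). They lie 8171 bases apart, with no other such gRNA between them. Of the 23 positioned gRNAs above both bulk libraries in both sorted libraries, 8 had another within 100 bases, all in the Nanog cluster. That cluster held 21 of the 23, so neighbours at this distance need no local grouping within it. No background was computed for this count.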

How the data were processed

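The values were whole-number counts of gRNAs per library, deposited by the authors in 1 table for the Nanog line. The genome build was mm10 per the submitters' processing notes. How gRNAs were counted: not given in the sources used here. Adding 1 to the deposited starts placed a PAM at 140 of 140 gRNAs in RefSeq promoter windows. The placeholder guide (0.633% and 0.663% of bulk, 0.0357% and 0.0386% of GFP-negative counts) was left out of totals and tests. Counts per gRNA were filtered with filterByExpr (minimum count 10), scaled by TMM and tested with edgeR 4.0.16 (robust quasi-likelihood F test, 2-sided, Benjamini-Hochberg, threshold 0.05) in R 4.3.3; counts summed per cluster or 1-kb tile used total counts as library size. DESeq2 1.42.0, limma-voom (limma 3.58.1), other scalings, tile sizes and gaps, a replicate block and leaving out each library were alternatives. The gRNA and tile fits were run on counts simulated around the bulk means. The simulation did not model the loss of gRNAs seen in the sorted libraries. It therefore does not show how the fits behave on such narrow libraries, and the cluster fit was not simulated. Per the labels, libraries with the same number come from the same replicate of the Nanog-GFP line, so they are paired. The main fits held no replicate block and so left this pairing out, and fits with the block were an alternative. Deviations of same-numbered libraries correlated at 0.21 over 489 gRNAs with counts in all 4 libraries. Over 1522 gRNAs with at least 10 counts in all, with 1 mean count added, the correlation was 0.34. The floor of 3 counts covers counting error only. Named gRNAs were those against GFP, the 10 depleted ones with the highest bulk CPM, and, in each cluster and each tile within 10 kb of the Nanog 5′ end, the gRNA highest in its lower sorted library if above both bulk libraries; others are named as chosen after their values were seen: the promoter gRNAs, the highest of each sorted library and neighbours of named ones. The members and lists were chosen with earlier results of these data known. RefSeq tables gave gene spans, without exons.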

Additional observations from a re-analysis of the deposited data

How the results depend on the processing

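The rise of the Nanog cluster and of the GFP-targeting gRNAs and the fall of cluster 7 kept direction and call in every alternative run. Counts of calls did not. The main fits gave 0 enriched and 74 depleted gRNAs, 1 enriched and 5 depleted clusters, and 5 enriched and 5 depleted tiles. Depleted gRNAs numbered 0 with DESeq2 (50 enriched, of the 84 past its filter on mean count), limma-voom, no filter on low counts or the replicate block. Leaving out 1 library gave 0 to 133 enriched and 0 to 369 depleted gRNAs, 1 to 2 enriched and 1 to 5 depleted clusters, and 1 to 10 enriched and 0 to 23 depleted tiles; the many calls came from fits with 1 sorted library, assumed to vary like the bulk libraries. Depleted clusters numbered 3 with the replicate block (fitted log2 -0.88 for cluster 3, adjusted p = 0.0970, and -1.23 for cluster 5, adjusted p = 0.158, edgeR), and 3 with totals without GFP-targeting gRNAs (-0.68 and -0.97). TMM gave 2 enriched and 2 depleted clusters and 8 enriched tiles, with -0.64 for cluster 1, 0.10 for cluster 3, 1.01 for cluster 4 and -0.24 for cluster 5. Leaving out 1 library gave -1.97 to -1.21 for cluster 1, -3.21 to -2.46 for cluster 2, -1.22 to -0.54 for cluster 3, -0.16 to 0.27 for cluster 4 and -1.76 to -0.71 for cluster 5. Without the highest gRNA of each cluster, cluster 3 was at -1.10 and cluster 4 at -0.39, and without the highest of either sorted library, chosen after seeing the data, cluster 4 was at -1.10. Enriched tiles numbered 3 of 72 tested at 500 bp, and depleted tiles 10 of 25 tested at 2 kb, against 5 of 41 in each direction at 1 kb. Without the highest gRNA of each tile 0 were enriched and 19 depleted, and the tile from 122670000 turned to -0.053. At a depth of 6265 counts the ratio of counted gRNAs was 1.12 for GFP-targeting gRNAs and 0.295, 0.298, 0.287, 0.367, 0.287, 0.422 and 0.328 for clusters 1 to 7 (main 0.361 to 0.492, GFP-targeting 0.944). Beyond the alternatives named, the cause was not tested. The sorted libraries were sequenced more deeply than bulk, and which of depth, sorted cells and number of replicates limits the calls was not tested.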
